A study of Mus musculus with 15 samples.

Results

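The endoplasmic reticulum (ER) folding and stress genes are a list of 33 genes that encode the chaperones, disulfide enzymes, stress sensors, degradation factors and transport subunits of the ER, and they were followed one by one through the livers of young and old mice. The members were listed by name and not by a threshold on a measured value, though with earlier results of these data known. All 33 symbols matched an identifier among the 37991 in the count table, and all 33 passed the filter on low counts that left 14258 genes to test, so no member dropped out. RNA from whole liver of female C57BL/6 mice fed chow was sequenced, with 1 library per mouse, in 3 groups of 5 mice. Young WT mice were 90 days old and wild-type at S6K1, the ribosomal protein S6 kinase encoded by Rps6kb1. Old WT mice were 600 days old with the same genotype. Old KO mice, also of 600 days, carried a knockout of S6K1 in the whole body. WT and KO mice came from heterozygous parents. There was no young KO group, so genotype was compared at 600 days alone.

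Totals ran from 21801754 counts in young WT 6 to 38065359 in young WT 1. Libraries carry the numbers of their labels. Rps6kb1, the targeted gene, was at 38.3 ± 3.14 CPM (counts scaled by library size; mean ± SD, n = 5) in young WT, 38.4 ± 4.21 CPM in old WT and 17.0 ± 2.23 CPM in old KO (log2 fold change -1.17 against old WT), so that reads of the gene remained in old KO but its libraries did not overlap the others. The 10 hepatocyte markers were present in every group. The 10 pancreas acinar markers, from the gland richest in ER, summed to 28, 10 and 14 counts over the 5 libraries of young WT, old WT and old KO. B and plasma cell markers, from cells that also carry much ER, summed to 7.45 to 18.2 CPM in young WT, 59.9 to 179 CPM in old WT and 88.1 to 965 CPM in old KO. Of the 10 such markers tested, 5 rose with age and 3 rose in old KO against young WT. In old KO against old WT they gave 0 calls, with 5 of 10 higher in sign and a median log2 fold change of -0.02. Of 14 macrophage markers, 7 fell in old KO against old WT (median log2 fold change -1.09, 0 of 14 higher in sign), and 7 genes common to leukocytes had a median of -0.82 with 0 of 7 higher. The part of these cells in the results below was not tested. In whole liver, counts alone cannot tell fewer cells of a type from less RNA per cell. By staining, the study reported reduced infiltration of myeloid cells, T cells and B cells in old KO against old WT liver. The B and plasma cell markers, as RNA, showed no call in that comparison.

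Proteins bound for secretion or for membranes are threaded into the ER through the Sec61 channel, folded there by chaperones of the Hsp70 and Hsp90 families and by lectin chaperones, and cross-linked by protein disulfide isomerases. When unfolded protein accumulates, the sensors IRE1 (Ern1), PERK (Eif2ak3) and ATF6 start the unfolded protein response: IRE1 splices Xbp1 mRNA, PERK slows translation, and XBP1 and cleaved ATF6 switch on chaperones and the machinery of ER-associated degradation (ERAD), which returns misfolded protein to the cytosol for the proteasome. Hepatocytes make most plasma proteins and are among the secretory cells in which this system is best known. The study stained liver for BiP, the product of Hspa5, and for CHOP, the product of Ddit3, as ER stress markers. It reported both proteins as raised in old WT liver and less so in old KO liver. The question addressed here is the mRNA level of the pathway with age and S6K1 status, and the counts carry nothing on protein level.

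Many of these genes share short promoter elements, and the elements are shown because the factors of the unfolded protein response are known to act through them. ATF6 and XBP1 are known to act on the ER stress response element (ERSE; CCAAT, any 9 bases, CCACG), which was defined on promoters such as that of Hspa5, so its presence in this list is background. The related ERSE-II is ATTGG, any 1 base, CCACG, in which ATTGG is CCAAT read on the other strand, and the core of the unfolded protein response element (UPRE) was searched as TGACGTGG. Promoters of 250 bases before to 50 after the start, from RefSeq on GRCm38.p6, were given for 27 of the 33 members, all except Atf6, Derl1, Manf, Hyou1, Sec61a1 and Hspa13, and both strands were searched. ERSE was found in 10 of the 27 (37.0%), against 0.137% of 27025 genes with such a promoter: Hspa5, Hsp90b1, Calr, Canx, Pdia6, Dnajc3, Syvn1, Derl3, Creld2 and Ero1lb. ERSE-II was found in Dnajb11 and Herpud1 (7.41% of the 27, against 0.0444% of genes). The UPRE core was found in Sec24d (3.7%, against 0.714%). A match describes letters only, and no match says only that these letters were not in that window. Windows of 15 bases on either side of the match follow, 5′ to 3′ on the strand of the gene, with the motif bases in capitals and positions on NCBIM37 (mm9), where the same letters were located. In Creld2 the element reads in reverse.
Hspa5 (ERSE, chr2:34627530-34627578, plus strand): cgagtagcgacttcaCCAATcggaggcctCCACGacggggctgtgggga
Syvn1 (ERSE, chr19:6046517-6046565, plus strand): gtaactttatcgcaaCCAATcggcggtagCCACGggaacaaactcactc
Dnajc3 (ERSE, chr14:119337034-119337082, plus strand): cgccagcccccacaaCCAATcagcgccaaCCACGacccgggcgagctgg
Creld2 (ERSE, chr15:88649935-88649983, plus strand): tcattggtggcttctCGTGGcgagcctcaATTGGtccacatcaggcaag
Herpud1 (ERSE-II, chr8:96910262-96910302, plus strand): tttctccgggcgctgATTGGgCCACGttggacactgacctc
Dnajb11 (ERSE-II, chr16:22857910-22857950, plus strand): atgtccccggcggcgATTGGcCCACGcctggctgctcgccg
Sec24d (UPRE core, chr3:122970373-122970410, plus strand): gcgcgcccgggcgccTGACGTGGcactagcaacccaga

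Per length of exon, the list spanned about 3 orders of size. P4hb, which encodes protein disulfide isomerase, stood at the top in each group, with 417 ± 50.1 CPM per kilobase in young WT, 429 ± 62.0 in old WT and 424 ± 41.5 in old KO (mean ± SD, n = 5). Next came Hsp90b1 (GRP94), Hspa5 (BiP) and Calr (calreticulin), whose levels in young WT were 195 ± 60.9, 161 ± 43.9 and 161 ± 35.8 CPM per kilobase, within an SD of each other, and whose order changed between groups. The sensor Eif2ak3 and the derlin Derl3 were at the foot of the order, with 2.47 ± 0.481 and 0.571 ± 0.542 CPM per kilobase in young WT. Derl3 had between 5 and 62 counts per library, so its values are the least certain of the list. Summed over the 33 members, the libraries held 4771 to 7048 CPM in young WT, 4515 to 6464 CPM in old WT and 5166 to 7633 CPM in old KO, and the 3 groups overlapped.

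**Figure D1:**
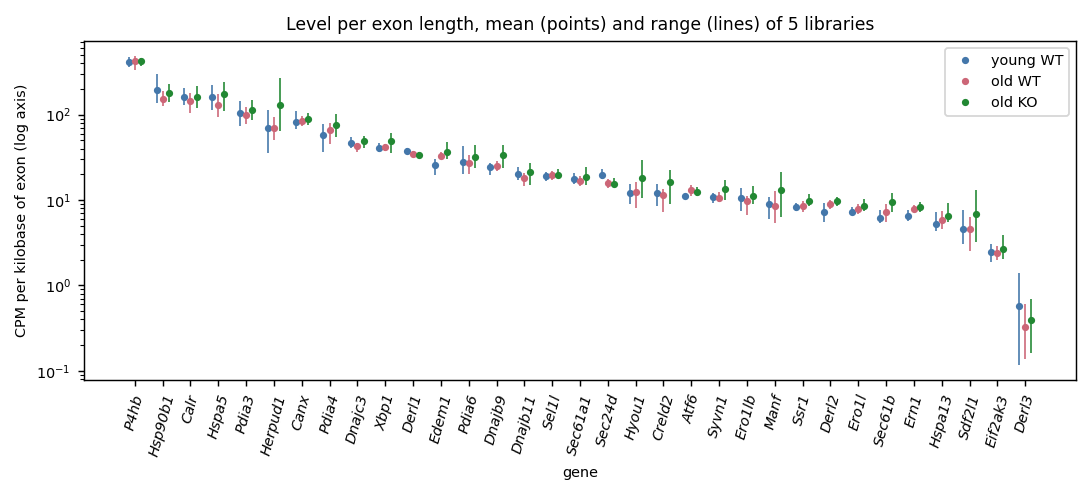
Level of each of the 33 genes per exon length (CPM per kilobase, log axis), as the mean of 5 libraries (points) with the lowest and highest library (lines) in young WT, old WT and old KO. P4hb lies highest and Derl3 lowest in each group, and for most genes the ranges of the 3 groups overlap.

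Across the list, the 3 groups differed in few members. With age (old WT against young WT), 1 of 33 members passed an adjusted p of 0.05, Sec24d, which fell, while 18.8% of the 14258 genes tested passed in either direction, 9.92% rising and 8.91% falling. The unadjusted p was under 0.05 for 5 members, 4 of them higher, and for 4705 of the 14258 genes tested in either direction. The median log2 fold change of the members was -0.0034, beside 0.0080 over all genes tested, and the signs were split 16 higher and 17 lower (51.2% of all genes were higher). The 95% interval lay within 1 log2 unit of 0 for 32 of 33 members, all except Derl3. With genotype (old KO against old WT), 0 of 33 members passed, where 0.533% of all genes did. By unadjusted p under 0.05 there were 6 members, all higher (11.6% of all genes in either direction), and DESeq2 and limma voom also called 0, with 7 and 4 at unadjusted p under 0.05. Old KO was higher in sign for 28 of 33 members (50.2% of all genes), and the median was 0.195 (0.0008 over all genes). Hepatocyte markers had a similar value in that comparison, with 9 of 10 higher in sign and a median of 0.213, and its part in the members' value was not tested. The interval lay within 1 log2 unit of 0 for 28 of 33, all except Herpud1, Manf, Sdf2l1, Hyou1 and Derl3.

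Old KO against young WT, where age and genotype both differ, gave 6 calls of 33 members, against 23.3% of all genes, with 12 members at unadjusted p under 0.05 (36.8% of all genes). Edem1, Derl2, Dnajb9, Ern1 and Sec61b rose (12.0% of all genes rose) and Sec24d fell (11.3% fell). DESeq2 and limma voom called the same 6. The median was 0.189 (-0.0055 over all genes), and 29 of 33 members were higher in sign (49.4% of all genes). This comparison shares its young WT libraries with the comparison of age and its old KO libraries with the comparison of genotype, so the 3 sets of values are not independent. With age, the groups did not overlap for Edem1 (higher) and Sec24d (lower), where the shares over all genes were 5.78% and 5.67%. With genotype this held for 0 members (3.2% of all genes in either direction). In old KO against young WT it held for Edem1 (7.32% of all genes higher).

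**Figure D2:**
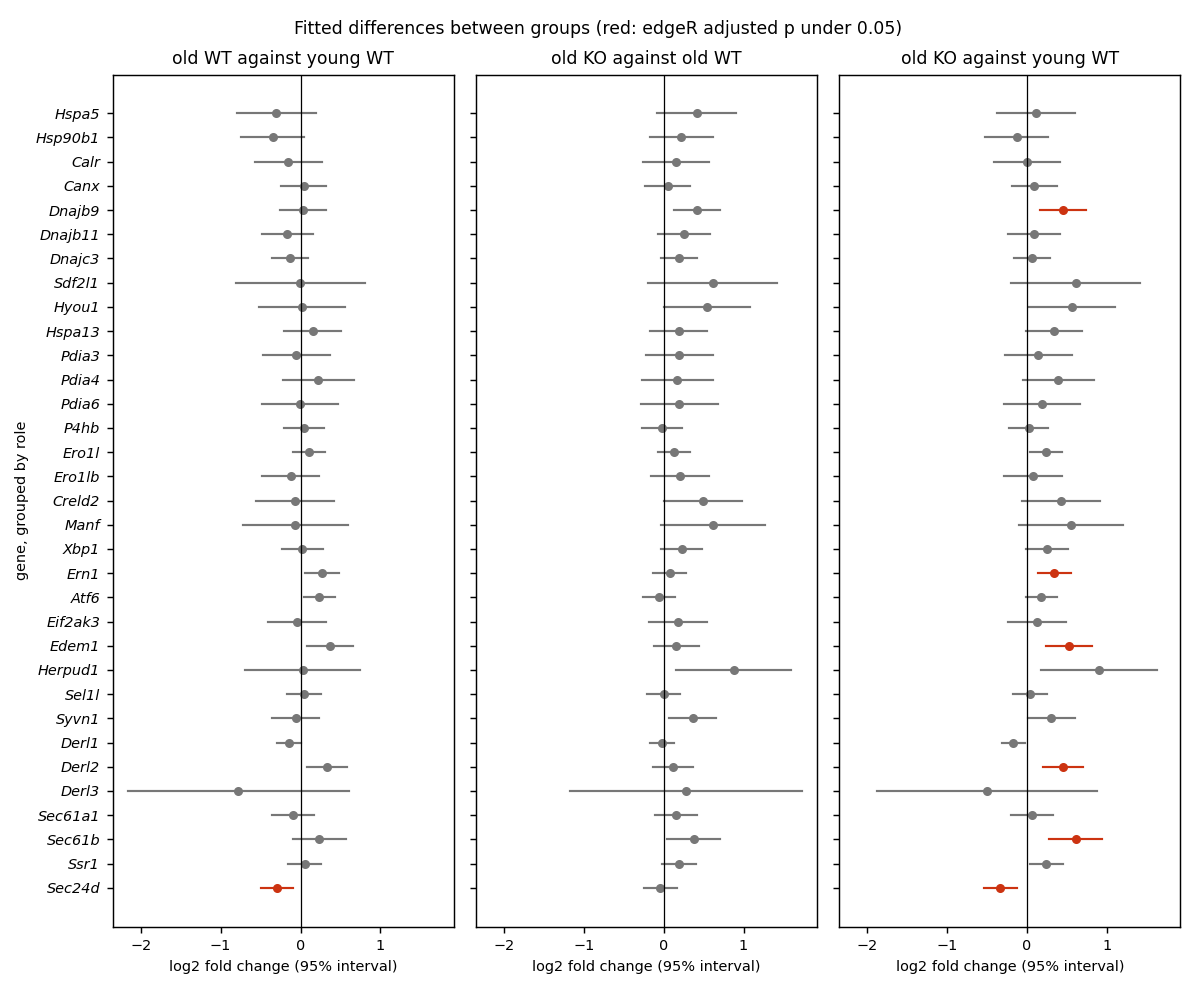
Fitted log2 fold change of each of the 33 genes (points) with its 95% interval (lines), in 3 comparisons of 5 against 5 libraries, genes grouped by role from chaperones at the top to transport at the foot. Red marks an edgeR adjusted p under 0.05: 1 gene with age, 0 with genotype and 6 in old KO against young WT.

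Of the 4 genes of the stress sensors and XBP1, 0 passed with age or genotype and Ern1 rose in old KO against young WT. Ern1 encodes IRE1, the kinase and ribonuclease that splices Xbp1. In order of library number, Ern1 was at 48.1, 59.1, 45.9, 54.0 and 61.7 CPM in the 5 young WT libraries, 70.8, 59.3, 62.1, 65.9 and 66.5 CPM in the 5 old WT libraries and 76.9, 59.3, 67.1, 60.5 and 77.8 CPM in the 5 old KO libraries. Young and old WT overlapped through old WT 4 and young WT 6, and the difference missed the threshold (log2 fold change 0.27, with SE 0.0991 and adjusted p = 0.0658). Ern1 rose in old KO against young WT (log2 fold change 0.35, with SE 0.0992 and adjusted p = 0.0201), and the call was lost without young WT 1 (adjusted p = 0.0551) and without old KO 1 (adjusted p = 0.0517). Atf6 encodes the membrane-bound factor that is cut in the Golgi. Its values were 81.0, 81.1, 85.5, 86.9 and 79.9 CPM in young WT, 93.7, 96.1, 83.1, 112 and 104 CPM in old WT and 107, 85.6, 84.2, 85.0 and 107 CPM in old KO. Young WT was narrow, all old WT libraries but old WT 5 lay above it, and the fit missed the threshold (log2 fold change 0.24, with SE 0.0921 and adjusted p = 0.0829).

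Eif2ak3 encodes PERK, the kinase that phosphorylates eIF2α. Young WT held 12.7, 16.6, 15.5, 12.0 and 10.3 CPM, old WT 13.5, 13.6, 11.7, 15.5 and 10.7 CPM and old KO 21.0, 12.2, 13.0, 16.2 and 11.05 CPM. The 3 groups overlapped, and no comparison passed (adjusted p = 0.871 with age, 0.764 with genotype and 0.624 for old KO against young WT). Xbp1 encodes the factor made active by IRE1. Xbp1 was at 138, 150.4, 133, 121 and 119.5 CPM in young WT, 140.2, 146, 123, 122 and 143 CPM in old WT and 199, 115, 157, 178 and 139 CPM in old KO. Old KO 1, 4 and 5 were above every WT library and old KO 2 was below every one (log2 fold change 0.23, with SE 0.123 and adjusted p = 0.508 against old WT). Counts per gene do not separate spliced from unspliced Xbp1 and carry nothing on protein activation of any sensor.

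Among the 10 chaperones and co-chaperones, 0 passed with age or genotype, and Dnajb9 rose in old KO against young WT. Hspa5 encodes BiP, the Hsp70 chaperone of the ER lumen that also holds the sensors inactive. The young WT libraries had 393, 451, 563, 649.9 and 777 CPM, old WT 457, 620.0, 458, 329.8 and 434 CPM and old KO 852, 388, 554, 812 and 455 CPM. Old KO 1 and old KO 5 were the highest, old WT 7 was the lowest, and the groups overlapped in all 3 comparisons. The fitted differences were -0.30 with age (95% interval -0.79 to 0.19, adjusted p = 0.386), 0.41 with genotype (-0.08 to 0.91, adjusted p = 0.521) and 0.11 for old KO against young WT (-0.38 to 0.60, adjusted p = 0.760). A change of Hspa5 by 1 log2 unit in either direction therefore lay outside each interval, while changes between the bounds of an interval remained possible. Ddit3, outside the list, encodes CHOP, the factor induced through PERK, and was at 5.88 ± 0.947 CPM in young WT, 6.26 ± 1.21 CPM in old WT and 6.999 ± 1.102 CPM in old KO, with adjusted p = 0.703, 0.755 and 0.240 in the 3 comparisons.

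Dnajb9 encodes ERdj4, a J-domain partner of BiP. Dnajb9 was at 37.0, 40.8, 49.97, 49.4 and 50.5 CPM in young WT, 47.4, 46.6, 45.1, 40.6 and 53.4 CPM in old WT and 82.1, 43.7, 60.9, 65.4 and 58.8 CPM in old KO. Of the old KO libraries, 4 were above every WT library and old KO 2 was not. Dnajb9 rose in old KO against young WT (log2 fold change 0.45, with SE 0.137 and adjusted p = 0.0266), missed the threshold against old WT (log2 fold change 0.42, with SE 0.137 and adjusted p = 0.216), and differed by 0.03 with age. The first of these calls was lost without young WT 1, young WT 2, old KO 1 or old KO 5, with adjusted p between 0.0576 and 0.0736. The other 8 chaperones passed in no comparison. With genotype, Hyou1 (the BiP exchange factor GRP170) had a log2 fold change of 0.54 (95% interval 0.01 to 1.08) and Sdf2l1, which works with J-domain partners of BiP, 0.62 (-0.19 to 1.42). The lectin chaperones Calr (0.15) and Canx (0.05), the Hsp90 family member Hsp90b1 (0.22) and the co-chaperones Dnajb11 (0.26) and Dnajc3 (0.20) had smaller values, as did the Hsp70 relative Hspa13 (0.19). With age, Hsp90b1 had the value farthest below 0 of the 10 chaperones (-0.35, adjusted p = 0.204).

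**Figure D3:**
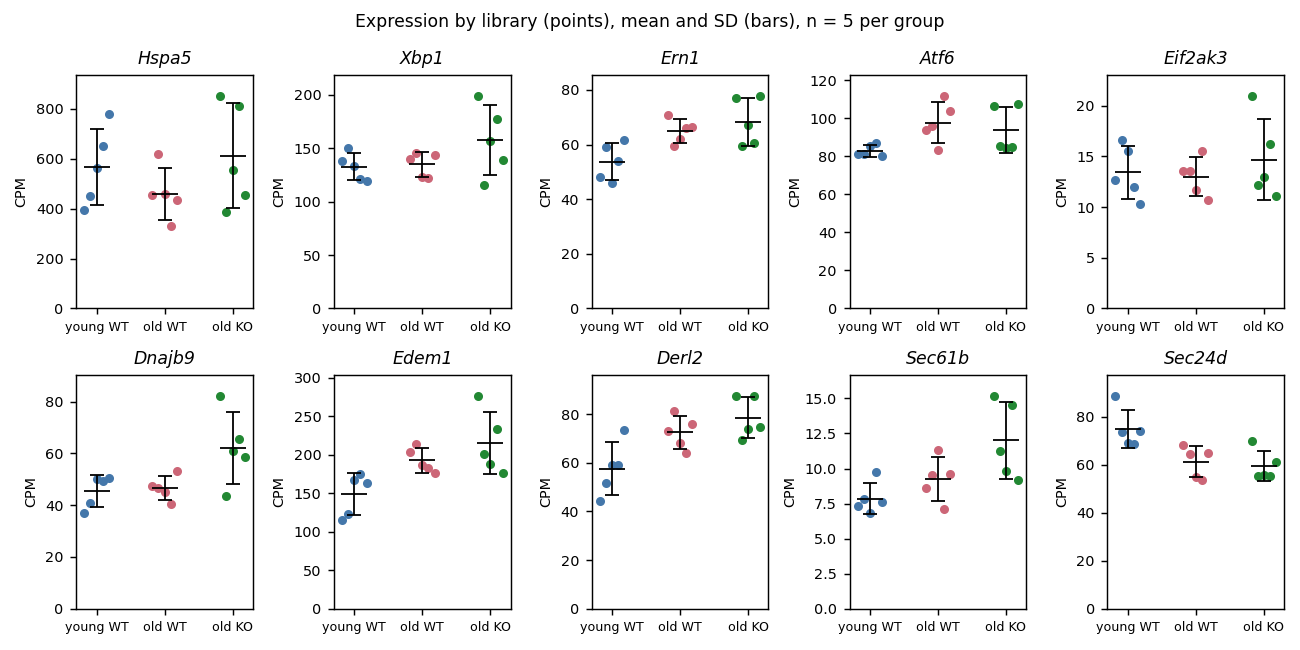
CPM of 10 genes in each library (points, in order of library number within a group), with the mean and SD of 5 libraries as bars, from 0 upwards. Hspa5, Xbp1 and Eif2ak3 overlap between groups, whereas Edem1 is higher in every old library than in every young one and Sec24d is lower in every old WT than in every young WT library.

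The 6 disulfide enzymes and the 2 secreted stress proteins passed in no comparison. P4hb, which serves prolyl 4-hydroxylase and the microsomal triglyceride transfer protein as well as disulfide exchange, had the narrowest intervals of the disulfide isomerases, -0.21 to 0.29 with age and -0.27 to 0.23 with genotype. Pdia3, the isomerase that works with calreticulin and calnexin, differed by -0.05 with age and 0.20 with genotype, and Pdia4 and Pdia6 by 0.22 and -0.01 with age and by 0.17 and 0.20 with genotype. The oxidases that recharge these enzymes, Ero1l and Ero1lb, differed by 0.11 and -0.12 with age and by 0.13 and 0.20 with genotype. Ero1l came closest to the threshold in old KO against young WT (log2 fold change 0.24, with SE 0.0950 and adjusted p = 0.0780). Manf and Creld2 encode small proteins that are released during ER stress. With genotype, Manf differed by 0.62 (95% interval -0.04 to 1.27, adjusted p = 0.464) and Creld2 by 0.49 (0.003 to 0.99, adjusted p = 0.425).

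Of the 7 ERAD genes, 0 passed with age or genotype and Edem1 and Derl2 rose in old KO against young WT. Edem1 encodes a lectin that hands misfolded glycoproteins to ERAD. In young WT there were 116, 124, 167, 175 and 164 CPM, in old WT 203, 215, 187, 183 and 176 CPM and in old KO 276, 201, 188, 233 and 177 CPM. Every old library was above every young one, the lowest old WT value being 176 CPM and the highest young WT value 175 CPM. Edem1 rose in old KO against young WT (log2 fold change 0.53, with SE 0.135 and adjusted p = 0.0109). With age the value was 0.37 (SE 0.135), which missed the threshold in edgeR (adjusted p = 0.0651) and passed in DESeq2 (adjusted p = 0.0473). Old KO differed from old WT by 0.16 (adjusted p = 0.713).

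Derl2 encodes a derlin, a channel-like subunit through which ERAD substrates leave the ER. Derl2 was at 44.1, 51.5, 59.0, 59.2 and 73.6 CPM in young WT, 73.0, 81.3, 68.2, 64.0 and 75.8 CPM in old WT and 87.4, 69.3, 73.8, 87.4 and 74.5 CPM in old KO. Young WT 6 alone reached into the range of the old groups. Derl2 rose in old KO against young WT (log2 fold change 0.45, with SE 0.117 and adjusted p = 0.0123). With age it missed the threshold in edgeR (log2 fold change 0.33, with SE 0.117 and adjusted p = 0.0562) and passed in DESeq2 and limma voom (adjusted p = 0.0455 and 0.0466). Derl2 shares 231 exon bases (2.87%) with Mis12 on the opposite strand, and Mis12 also rose in old KO against young WT (0.38, adjusted p = 0.0384). The strand setting of the counting was not stated, so reads in the shared bases cannot be assigned to either gene.

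Herpud1 encodes a membrane protein that assembles the ERAD ligase complex, and it was singled out after its values were seen. Herpud1 was at 83.9, 119, 263, 167 and 173 CPM in young WT, 143, 175, 219, 117 and 167 CPM in old WT and 149, 257, 216, 626 and 261 CPM in old KO. Old KO 5 was 4.20 times the lowest old KO library and above every other library. Herpud1 had the largest fitted value of the list with genotype (log2 fold change 0.88, with SE 0.341 and adjusted p = 0.310, 95% interval 0.15 to 1.60) and for old KO against young WT (log2 fold change 0.90, with SE 0.341 and adjusted p = 0.0654), and passed in neither. Syvn1, the ubiquitin ligase HRD1, differed by 0.37 with genotype (adjusted p = 0.296), and Sel1l, its partner, had an interval of -0.21 to 0.21. Derl1 differed by -0.14 with age (adjusted p = 0.169) and by -0.17 in old KO against young WT (adjusted p = 0.0934). For Derl3 the intervals were wide, -2.16 to 0.60 with age and -1.17 to 1.73 with genotype.

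The 4 transport genes held 1 call with age, 0 with genotype and 2 in old KO against young WT. Sec24d encodes a cargo adaptor of the COPII coat that buds vesicles from the ER, and its promoter is the one shown above with the UPRE core. By library, young WT had 88.5, 73.7, 69.1, 68.6 and 74.0 CPM, old WT 68.0, 64.6, 54.8, 53.5 and 64.9 CPM and old KO 70.0, 55.5, 55.8, 55.2 and 60.9 CPM. Every old WT library was below every young WT library, though the highest old WT value (68.0 CPM) came close to the lowest young WT value (68.6 CPM), and old KO 1 reached into the young range. Sec24d fell with age (log2 fold change -0.29, with SE 0.0950 and adjusted p = 0.0431, 95% interval -0.49 to -0.09) and in old KO against young WT (log2 fold change -0.33, with SE 0.0951 and adjusted p = 0.0203), and differed by -0.04 between the old groups (95% interval -0.24 to 0.16). The call with age sat close to the threshold: it was lost without young WT 1, 2 or 6 or without old WT 4, 5, 7 or 10, with adjusted p between 0.0504 and 0.120. The call in old KO against young WT was lost without young WT 1, old KO 4 or old KO 5 (adjusted p between 0.0508 and 0.0588). Sec24d shares 323 exon bases (8.38%) with Mettl14 on the opposite strand, and Mettl14 passed in neither comparison (-0.09 and -0.05).

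Sec61b encodes an accessory subunit of the translocation channel. Sec61b was at 7.29, 7.85, 6.81, 9.73 and 7.59 CPM in young WT, 8.62, 9.57, 11.3, 7.11 and 9.59 CPM in old WT and 15.2, 11.3, 9.85, 14.5 and 9.19 CPM in old KO. All old KO libraries but old KO 6 were above the highest young WT library. Sec61b rose in old KO against young WT (log2 fold change 0.61, with SE 0.157 and adjusted p = 0.0111), with 0.24 with age (adjusted p = 0.311) and 0.38 with genotype (adjusted p = 0.345). Sec61a1, the pore itself, differed by 0.06 in old KO against young WT (95% interval -0.20 to 0.32), and Ssr1, a subunit of the translocon-associated complex, by 0.24 (adjusted p = 0.0858). Leaving out any 1 of the 10 libraries kept the calls of Edem1, Derl2 and Sec61b in old KO against young WT. The count of 6 fell to 3 without young WT 1.

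Between animals of a group, the spread of the members was above that of the typical gene, most of all in old KO. The median SD of a member on the log2 scale was 0.275 in young WT, 0.210 in old WT and 0.309 in old KO, beside 0.226, 0.198 and 0.203 over all genes tested. In old KO the ratio of the highest to the lowest library was 4.20 for Herpud1, 4.04 for Sdf2l1, 3.32 for Manf, 2.78 for Hyou1, 2.46 for Creld2 and 2.20 for Hspa5, whereas it was 1.16 for Derl1. Manf held 74.1, 22.3, 38.3, 70.1 and 25.4 CPM in old KO 1, 2, 4, 5 and 6, and Hyou1 210.3, 75.7, 108, 167 and 86.5 CPM in the same order. The 12 members with ERSE or ERSE-II in the promoter had a median SD of 0.336, 0.281 and 0.398 in young WT, old WT and old KO, and the 15 with a promoter but neither element 0.192, 0.152 and 0.259. The ranges overlapped: in old KO the SD ran from 0.204 to 0.780 with an element and from 0.144 to 0.922 without, and the largest, that of Sdf2l1, belonged to a promoter with neither. These spreads are a description, with no test.

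The same libraries were high or low for most of the list. Old KO 1 was the highest old KO library for 27 of 33 members. Old KO 1 and old KO 5 were the 2 highest old KO libraries for 27 of 33 (81.8%, against 14.4% of all genes tested) and stood above all other old libraries for 24 (72.7%, against 4.32%). Old WT 7 was the lowest of the 10 old libraries for 23 (69.7%, against 15.1%), and young WT 1 was the lowest young WT library for 22. The counts for old KO 1 alone and for young WT 1 have no share over all genes beside them. These libraries were picked after their values were seen, so the counts describe the samples and test nothing. Sdf2l1 shows the pattern at a low level, with 14.4, 3.56, 4.15, 11.8 and 4.502 CPM in old KO 1, 2, 4, 5 and 6 and 5.28, 6.97, 5.76, 4.25 and 2.79 CPM in old WT 1, 4, 5, 7 and 10. Herpud1 departs from it, since it was lowest in old KO 1 and highest in old KO 5. The 2 high libraries also held the most RNA of B and plasma cell markers, which summed to 965, 187, 88.1, 309 and 239 CPM in old KO 1, 2, 4, 5 and 6. Ighm, an antibody heavy chain, was at 607 and 161 CPM in old KO 1 and 5 and at 41.6 to 155 CPM in the other old KO libraries. Igkc, an antibody light chain, was at 283 and 106 CPM against 32.2 to 68.1 CPM, and Igj, the joining chain of secreted antibody, at 63.9 and 32.3 CPM against 10.2 to 15.7 CPM. Old WT 7, low for the members, had the highest sum of these markers in old WT (179 CPM). Other cell types were read as the median over a list of the log2 level minus the mean of each gene. Stellate cell and fibroblast markers had 0.68, 0.15, -0.29, 0.30 and -0.49 in old KO 1, 2, 4, 5 and 6. Genes common to leukocytes had -0.05, -0.31, -0.60, 0.09 and -0.88. Macrophage markers were also highest in old KO 1 and 5 within old KO, unlike endothelial, bile duct and hepatocyte markers. Hepatocyte markers had 0.04, 0.08, 0.13, 0.37 and 0.10. The part of any of these cells in the order of the libraries was not tested.

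**Figure D4:**
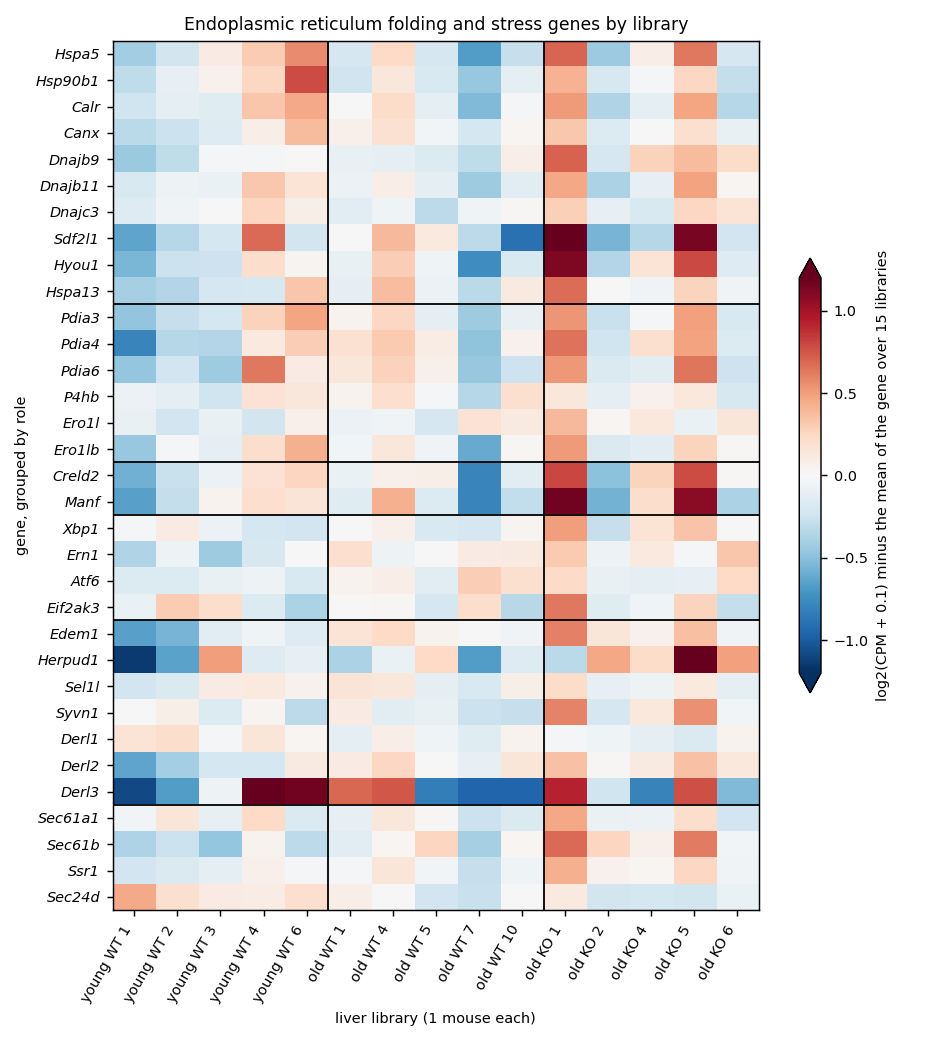
Level of each of the 33 genes (one line each, grouped by role) in the 15 libraries, as log2(CPM + 0.1) minus the mean of the gene over all libraries, with red higher and blue lower and the scale closed at 1.2 in either direction. Old KO 1 and old KO 5 are red for most genes, and young WT 1 and old WT 7 are blue for most chaperones.

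The higher medians of old KO depended on those libraries. The median log2 fold change of the members with genotype was 0.195 with all libraries, 0.0846 without old KO 1 and 0.133 without old WT 7, and it stayed above 0 in each fit that left out a single library (0.0846 to 0.260). Without old KO 1 and old KO 5 together it was -0.0249, and in old KO against young WT -0.0600 in place of 0.189. In that fit Sec24d was the 1 call left in old KO against young WT. Leaving out the libraries picked for high values lowers the difference by construction, so this shows what the medians rest on and not which value is right. The labels give no time of day or batch for any library.

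The translocon and other folding lists shared the highest libraries and the lowest old library of the members. The remaining lists shared these in part or not at all. The median centred log2 level of the 33 members was highest in old KO 1 (0.51) and old KO 5 (0.35) and lowest in young WT 1 (-0.36) and old WT 7 (-0.31). For 30 translocon, signal peptidase and N-glycosylation genes it was also highest in old KO 1 (0.20) and old KO 5 (0.15) and lowest in old WT 7 (-0.16), and for 35 other folding enzymes and chaperones highest in old KO 1 (0.16) and old KO 5 (0.06) and lowest in old WT 7 (-0.09). For 24 genes of the COPII coat and its receptors, 22 other ERAD genes and 15 other sensors and regulators, old KO 1 had 0.06, -0.01 and -0.01. Old KO 5 had -0.0002, 0.02 and 0.06 in the same order. The lowest libraries of these lists were old WT 7 (-0.16), old WT 1 (-0.10) and old WT 7 (-0.16). For 14 heat shock factor targets, which guard cytosolic folding, it was highest in young WT 6 (0.62) and old KO 6 (0.55), with 0.28 in old KO 1 and 0.20 in old KO 5, and lowest in old WT 7 (-0.51). For 19 genes of the PERK arm and the integrated stress response, it was lowest in old KO 1 (-0.35), with -0.09 in old KO 5, and highest in young WT 2 (0.39).

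**Figure D5:**
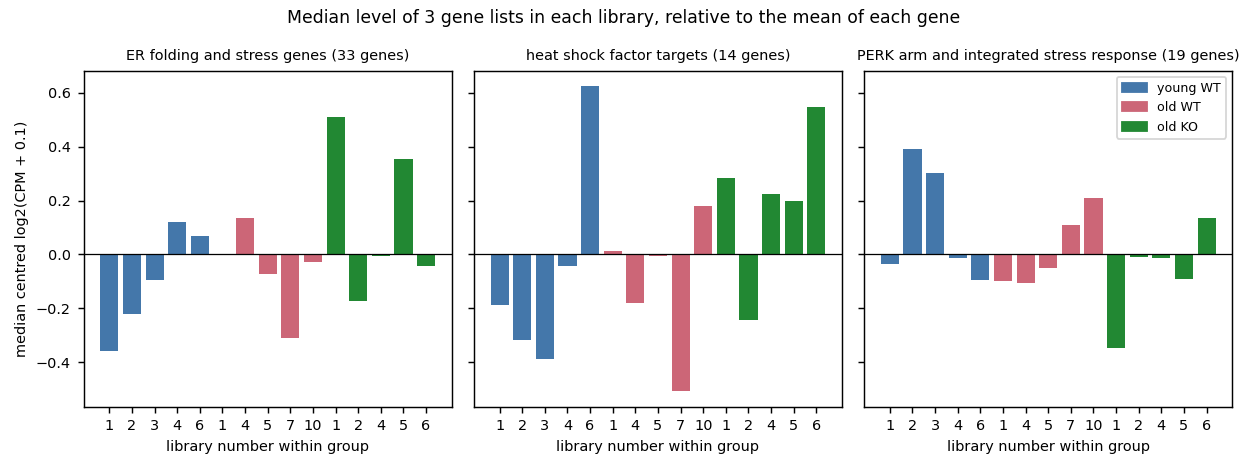
Median over the genes of each list of log2(CPM + 0.1) minus the mean of the gene, in each of the 15 libraries (bars, numbered within young WT, old WT and old KO). Old KO 1 reaches 0.51 for the ER folding and stress genes and -0.35 for the PERK arm and integrated stress response.

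The rest of the ER pathway was read from 5 further lists, in which 0 genes passed with genotype by edgeR, DESeq2 or limma voom. Together with the PERK arm, heat shock and clock lists they hold 177 genes tested, of which 17 had an unadjusted p under 0.05 with genotype. Over all genes tested that share was 11.6%. In sign, old KO was higher than old WT for 26 of 30 translocon, signal peptidase and N-glycosylation genes (median log2 fold change 0.147), 21 of 35 other folding enzymes and chaperones (0.0740), 16 of 24 COPII coat and receptor genes (0.0596), 13 of 22 other ERAD genes (0.0551) and 6 of 15 other sensors and regulators (-0.0132), and for 13 of 14 heat shock factor targets (0.305) and 10 of 19 genes of the PERK arm (0.0052), beside 28 of 33 members (0.195). Of 35 other folding enzymes and chaperones tested, 3 rose and 2 fell with age, and 7 rose and 5 fell in old KO against young WT. Txndc5, a disulfide isomerase relative, rose with age from 97.1 ± 8.66 to 135 ± 17.7 CPM (log2 fold change 0.47, with SE 0.109 and adjusted p = 0.00801), and Tmx3, a membrane-bound relative, also rose (0.39, adjusted p = 0.0397). The prolyl isomerase Fkbp11 fell from 2.32 ± 0.439 to 1.08 ± 0.399 CPM (log2 fold change -1.10, with SE 0.245 and adjusted p = 0.00648). Pdia5 rose in old KO against young WT (log2 fold change 0.58, with SE 0.183 and adjusted p = 0.0316). It was at 52.2 CPM in both old KO 1 and old KO 5. Old KO 2, 4 and 6 had 39.7, 36.3 and 33.5 CPM, and young WT ran from 16.5 to 35.9 CPM. Of 22 other ERAD genes, 2 rose and 5 fell with age. The mannosidase-like Edem2, a relative of Edem1, rose (log2 fold change 0.42, with SE 0.0985 and adjusted p = 0.00874), and Ufd1l and Nploc4, the cofactors that tie p97 to ERAD substrates, fell (-0.44, adjusted p = 0.00173, and -0.33, adjusted p = 0.00933).

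Of 30 translocon, signal peptidase and N-glycosylation genes, 1 rose and 2 fell with age. Spcs2, a signal peptidase subunit, rose (log2 fold change 0.38, with SE 0.108 and adjusted p = 0.0224) and was also higher in old KO against young WT (0.64, adjusted p = 0.000926), while Srpr, the receptor of the signal recognition particle, fell from 189 ± 13.0 to 144 ± 3.29 CPM (log2 fold change -0.39, with SE 0.0651 and adjusted p = 0.00127). Of 24 genes of the COPII coat, cargo receptors and KDEL receptors, 1 rose and 5 fell with age. The coat subunits Sec23a (log2 fold change -0.45, with SE 0.0967 and adjusted p = 0.00521) and Sec13 (log2 fold change -0.44, with SE 0.0985 and adjusted p = 0.00680) fell, as Sec24d did. Kdelr2, which returns ER residents from the Golgi, rose in old KO against young WT (log2 fold change 0.45, with SE 0.0811 and adjusted p = 0.00137). Of 15 other sensors and regulators of the unfolded protein response, 2 rose and 2 fell with age, among them Mbtps1, the site-1 protease that cuts ATF6 (0.24, adjusted p = 0.0147). Creb3l3, a liver relative of ATF6, fell in old KO against young WT (log2 fold change -0.54, with SE 0.172 and adjusted p = 0.0341). The share called over all genes was 18.8% with age and 23.3% in old KO against young WT, and these lists are described beside it with no test of their own.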

How the data were processed

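The authors extracted RNA from frozen liver with TRIzol, made TruSeq Stranded mRNA libraries, sequenced single-end reads, mapped them to mm9 with TopHat2 2.0.11 and obtained gene counts with HTSeq. The submitters' notes also name CASAVA and DESeq2 1.18.1. The deposited values are raw counts per gene with no normalization, and the annotation and strand setting of the counting were not given in the sources used here. Reads of near-identical genes can be lost, and opposite-strand overlaps cannot be told apart.

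Counts were scaled by TMM and filtered with filterByExpr in edgeR 4.0.16 (R 4.3.3), and a quasi-likelihood model (glmQLFit, glmQLFTest) was fitted to all 15 libraries (common biological coefficient of variation 0.189). P-values were adjusted by Benjamini-Hochberg over 14258 genes, with a threshold of 0.05, and all adjusted p-values are from this test unless another tool is named. CPM used TMM-scaled library sizes, and log2 levels of single libraries a pseudocount of 0.1. SE is the log2 fold change over the square root of F. Positions and exon lengths came from GENCODE M1 on NCBIM37, the build of mm9. The members and lists were chosen with earlier results of these data known. Of 294 list entries, 290 matched a symbol. Members described by library were those with a call, Hspa5, Xbp1 and the sensors. Herpud1, Manf, Hyou1 and Sdf2l1 were added outside that rule, after their values were seen. Most other genes were named by the largest changes, up to 2 per list and direction. The antibody genes Ighm, Igkc and Igj were named outside that rule too. Alternatives were RLE and upper quartile scaling, DESeq2 1.42.0, limma 3.58.1 voom, no filter, at least 10 counts in every library, the 10 libraries of a comparison, a replicate block and leaving out each library. The fits were tested on simulated data. Intervals cover these 5 mice per group, and depth gave every member but Derl3 at least 76 counts in each library.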

Additional observations from a re-analysis of the deposited data

Results flagged for a closer look

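In 6 of 99 groups of 5 libraries (33 members in 3 groups), 1 library stood farther from the other 4 than Dixon's ratio allows at 95% (0.71 for 5 samples). For independent groups, chance gives about 1 in 20, or 4.95 of 99. The members share the same libraries and moved together in them, and the ratio was taken on CPM without logs. The number expected by chance is therefore a rough guide only. Herpud1 was high in old KO 5, at 626 CPM where the next old KO library had 261 CPM. Creld2 was low in old WT 7, at 10.01 CPM where the next had 16.0 CPM, and Ero1lb was low in the same library, at 28.5 CPM where the next had 42.3 CPM. Sdf2l1 was high in young WT 4, at 8.53 CPM where the next had 4.56 CPM. Sec24d was high in young WT 1, at 88.5 CPM where the next had 74.0 CPM, and its call with age was lost without that library (adjusted p = 0.120). Hspa13 was high in young WT 6, at 42.4 CPM where the next had 29.4 CPM.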

How the results depend on the processing

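The members called with age numbered 1, and 3 with DESeq2, 2 with limma voom, and 0 with no filter or with the 10 libraries of the comparison alone, while leaving out 1 library gave 0 to 2. With genotype the count was 0 under every alternative run. In old KO against young WT it was 6, and 3 to 9 when 1 library was left out. Of the other pathway lists (177 genes tested), 37 genes passed with age (24 to 45 with 1 library left out), 48 in old KO against young WT (31 to 60), and with genotype 0 by edgeR, with 1 by DESeq2, the clock gene Per2 (0.76, adjusted p = 0.0340). By edgeR the share over all genes was 18.8% with age, 23.3% in old KO against young WT and 0.533% with genotype. Without old KO 1 and 5 together, an alternative chosen after seeing the data, the count of members in old KO against young WT was 1, that of the other lists 20 and the median of the members -0.0600. The same replicate numbers in different groups gave no sign of paired mice, though 2 to 4 shared numbers per comparison are too few to exclude pairing. The correlation of deviations between same-numbered libraries lay between -0.153 and 0.0770. With genotype, 0 of 6 libraries correlated best with their own number, and 0 of 8 did in old KO against young WT. With the replicate number as a block, members called were 0 with age and 2 in old KO against young WT (Herpud1 and Sec24d), and the other lists gave 16 with age. The cause of these moves was not tested, beyond the smaller number of libraries or genes where an alternative sets it. No called value changed sign. Among the values of single members, 14 lost and 4 gained a call under these alternatives, and 16 lost and 11 gained a call when 1 library was left out. Depth limits Derl3 (5 counts in its lowest library) and Sdf2l1 (76 counts) most.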

Other observations

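Beyond the ER, the PERK arm and integrated stress response list, heat shock factor targets and clock genes gave 0 calls with genotype by edgeR. Over all genes, 0.533% passed with genotype, 18.8% with age and 23.3% in old KO against young WT. The counts of these lists are described beside those shares with no test of their own. Of 19 PERK arm and integrated stress response genes, 2 rose and 2 fell with age. Vldlr, the very low density lipoprotein receptor, rose (log2 fold change 1.64, with SE 0.276 and adjusted p = 0.00139), and so did Nupr1, a small stress-induced nuclear protein (log2 fold change 0.91, with SE 0.299 and adjusted p = 0.0437). Trib3, a pseudokinase target of CHOP, fell (log2 fold change -0.997, with SE 0.289 and adjusted p = 0.0255). Of 14 heat shock factor targets, 2 fell with age, Hspb1 (-0.88, adjusted p = 0.0220) and Hspe1 (-0.44, adjusted p = 0.00600). In old KO against young WT, 2 rose and 1 fell. Bag3, a co-chaperone of Hsp70, rose (log2 fold change 0.99, with SE 0.228 and adjusted p = 0.00599), and Dnajb1 rose (0.70, adjusted p = 0.0479).

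Of 18 clock genes, 4 rose and 2 fell with age. Npas2 (0.99, adjusted p = 0.00499) and Nfil3 (1.08, adjusted p = 0.00382) rose, and Nr1d1, the repressor REV-ERBα, fell from 33.6 ± 11.7 to 12.2 ± 7.75 CPM (log2 fold change -1.46, with SE 0.458 and adjusted p = 0.0368). Clock genes cycle over the day, and some ER genes of the liver do too. The part of the collection time in the values above was not tested.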
